A study of Mus musculus with 6 samples.

Results

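The genes described here encode the hormones of the stomach, the granins and convertase of their secretory granules, and the enzymes that form amine messengers. They are Gast, Sst, Ghrl, Cck, Chga, Chgb, Pcsk1, Hdc, Ddc and Tph1. They were chosen by symbol, and 10 of 10 had a row among the 17256 genes of the deposited table. All 10 had counts high enough to be tested.

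The RNA came from epithelium of the antrum, the part of the stomach next to the duodenum, of C57BL/6 mice with induced atrophic gastritis. Animals of both groups had received MNNG, an alkylating carcinogen, and a drug that the labels spell Ranitine for 20 weeks. PEEPA-P5, known here only by that code name, was then given by gavage for 2 weeks to the treated animals, and vehicle for 2 weeks to the others. Each group has 3 libraries, called PEEPA-P5 1 to 3 and vehicle 1 to 3 here. The labels used here give neither age nor sex, nor whether each library is 1 animal, so the p-values below rest on a spread among libraries that may be only technical. Mice that never had gastritis were not analysed here.

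In the stomach, endocrine cells are scattered among the mucous cells of the glands. G cells of the antrum release gastrin, which acts through the receptor Cckbr on enterochromaffin-like cells of the acid-forming part of the stomach. Those cells make histamine, and histamine drives parietal cells to secrete acid through the receptor Hrh2. D cells release somatostatin, which restrains both gastrin and acid. X/A-like cells make ghrelin, the appetite hormone, and enterochromaffin cells make serotonin. In such a bulk sample, fewer cells of a type and less RNA per cell cannot be told apart.

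Total counts per library ran from 16388844 to 16903545. PEEPA-P5 3 stood apart from the other libraries. It had the lowest mean log2 CPM (counts scaled to the TMM-adjusted library size) of the 6 libraries in the marker lists of parietal cells, chief cells, fibroblasts, endothelium, smooth muscle and leukocytes, and the highest in that of surface mucous cells. Fibroblast markers summed to 63.2, 94.2 and 13.03 TPM (a level corrected for transcript length and library size) in PEEPA-P5 1, 2 and 3, against 98.2, 131.4 and 54.3 TPM in vehicle 1, 2 and 3. Vehicle 3 had the most chief cell transcript, with markers summing to 72330 TPM, against 8547 and 24250 TPM in vehicle 1 and 2. Differences of the members without such libraries are given beside them where they move most, while those of the lists were computed with all 6 libraries only.

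The upstream sequence of 5 of the genes is shown because members that share a motif there did not all share a pattern across libraries. The cAMP response element TGACGTCA is a binding site of CREB-family factors, and TGACGT is its first part, so a window with the longer motif also holds the shorter. Both were searched on both strands in the 250 bases before each annotated start (RefSeq, build GRCm38.p6). All 10 genes matched that table, with 15 starts in all. The longer motif was present in 3 genes, Sst, Chgb and Pcsk1, and the shorter in 4, with Chga added. Counted by start, the longer was in 3 and the shorter in 4 of the 15 windows of members. Over 32851 starts of all genes the longer was in 1.55% and the shorter in 6.47% of windows. Capitals mark the motifs on either strand, and each sequence runs 5′ to 3′ on the strand of the gene. Gast, the member with the most transcript, has neither motif in its window.
Sst, chr16:23890845-23891094, minus strand: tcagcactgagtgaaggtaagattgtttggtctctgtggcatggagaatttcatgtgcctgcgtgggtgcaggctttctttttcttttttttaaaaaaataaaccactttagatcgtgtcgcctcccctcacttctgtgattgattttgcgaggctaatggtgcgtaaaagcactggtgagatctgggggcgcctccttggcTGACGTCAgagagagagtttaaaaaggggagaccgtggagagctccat
Chgb, chr2:132781392-132781641, plus strand: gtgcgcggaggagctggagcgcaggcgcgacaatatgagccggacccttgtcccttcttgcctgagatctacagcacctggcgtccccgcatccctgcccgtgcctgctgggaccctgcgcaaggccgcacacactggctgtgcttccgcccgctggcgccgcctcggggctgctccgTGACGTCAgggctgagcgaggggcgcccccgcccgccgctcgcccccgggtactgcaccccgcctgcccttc
Pcsk1, chr13:75089607-75089856, plus strand: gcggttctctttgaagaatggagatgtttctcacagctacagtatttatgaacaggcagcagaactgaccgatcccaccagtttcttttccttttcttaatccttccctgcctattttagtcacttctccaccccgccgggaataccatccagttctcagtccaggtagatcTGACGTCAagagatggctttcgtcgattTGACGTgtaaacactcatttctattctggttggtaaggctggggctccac
Chga, chr12:102554691-102554940, plus strand: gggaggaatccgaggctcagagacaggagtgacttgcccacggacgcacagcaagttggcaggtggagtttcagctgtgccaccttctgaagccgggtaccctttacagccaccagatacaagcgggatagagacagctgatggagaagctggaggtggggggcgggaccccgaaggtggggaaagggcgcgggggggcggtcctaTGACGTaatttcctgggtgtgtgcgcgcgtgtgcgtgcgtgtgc
Gast, chr11:100334157-100334406, plus strand: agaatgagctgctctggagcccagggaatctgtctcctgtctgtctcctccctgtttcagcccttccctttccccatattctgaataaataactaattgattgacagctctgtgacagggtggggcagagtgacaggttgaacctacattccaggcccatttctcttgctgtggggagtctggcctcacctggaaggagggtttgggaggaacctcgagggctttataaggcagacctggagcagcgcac
The motif began 48 bases before the start in Sst, 72 in Chgb, 78 in Pcsk1 and 44 in Chga. A match is a description of these letters and shows no binding.

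Gast (Entrez 14459), which encodes gastrin, was the most abundant member per length in 5 of 6 libraries. It stood at 7032, 4990 and 199 TPM in PEEPA-P5 1, 2 and 3, against 9492, 6822 and 610 TPM in vehicle 1, 2 and 3. Both libraries numbered 3 were low, and the groups overlapped. By TPM Gast ranked 9, 16 and 458 among all genes in the PEEPA-P5 libraries, against 6, 10 and 160 in the vehicle libraries. The fitted log2 difference of PEEPA-P5 minus vehicle was -0.35 with a standard error of 1.28 (edgeR quasi-likelihood test, adjusted p 0.921). That difference turned to 0.20 without PEEPA-P5 3 and to 0.31 without vehicle 1.

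Sst (Entrez 20604), which encodes somatostatin, was at 254, 157 and 19.4 TPM in PEEPA-P5 1, 2 and 3, against 166, 882 and 298 TPM in vehicle 1, 2 and 3. PEEPA-P5 3 was lowest, vehicle 2 was highest, and the groups overlapped because PEEPA-P5 1 lay above vehicle 1. PEEPA-P5 minus vehicle came to -1.53 on the log2 scale with a standard error of 0.92 (edgeR adjusted p 0.515). It was -0.73 without vehicle 2 and -2.23 without PEEPA-P5 1.

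Ghrl (Entrez 58991), which encodes ghrelin, differed most in level among the hormones. It was at 440, 652 and 57.4 TPM in PEEPA-P5 1, 2 and 3, against 1430, 3107 and 2962 TPM in vehicle 1, 2 and 3. Every PEEPA-P5 library lay below every vehicle library. The log2 difference was -2.67 with a standard error of 0.81, an unadjusted edgeR p of 0.0170 and an adjusted p of 0.412, so Ghrl did not pass the adjusted threshold of 0.05. Leaving out any single library gave differences between -3.25 and -2.17, and without both libraries numbered 3 it was -1.91. In the GENCODE M21 annotation, exons of Ghrl overlap those of Gm26982 and Gm44033 on the opposite strand. Neither has a row in the table, and no source used here states strandedness, so reads of those transcripts cannot be told apart from Ghrl reads.

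Cck (Entrez 12424) encodes cholecystokinin, a gut hormone related to gastrin. It was a minor transcript, with 88, 79 and 9 counts in PEEPA-P5 1, 2 and 3, against 107, 44 and 13 counts in vehicle 1, 2 and 3. As for Gast, both libraries numbered 3 were low, and the groups overlapped. The log2 difference was 0.17 with a standard error of 0.90 (edgeR adjusted p 0.942), and its sign changed to -0.25 without PEEPA-P5 1 and to -0.27 without vehicle 3.

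**Figure D1:**
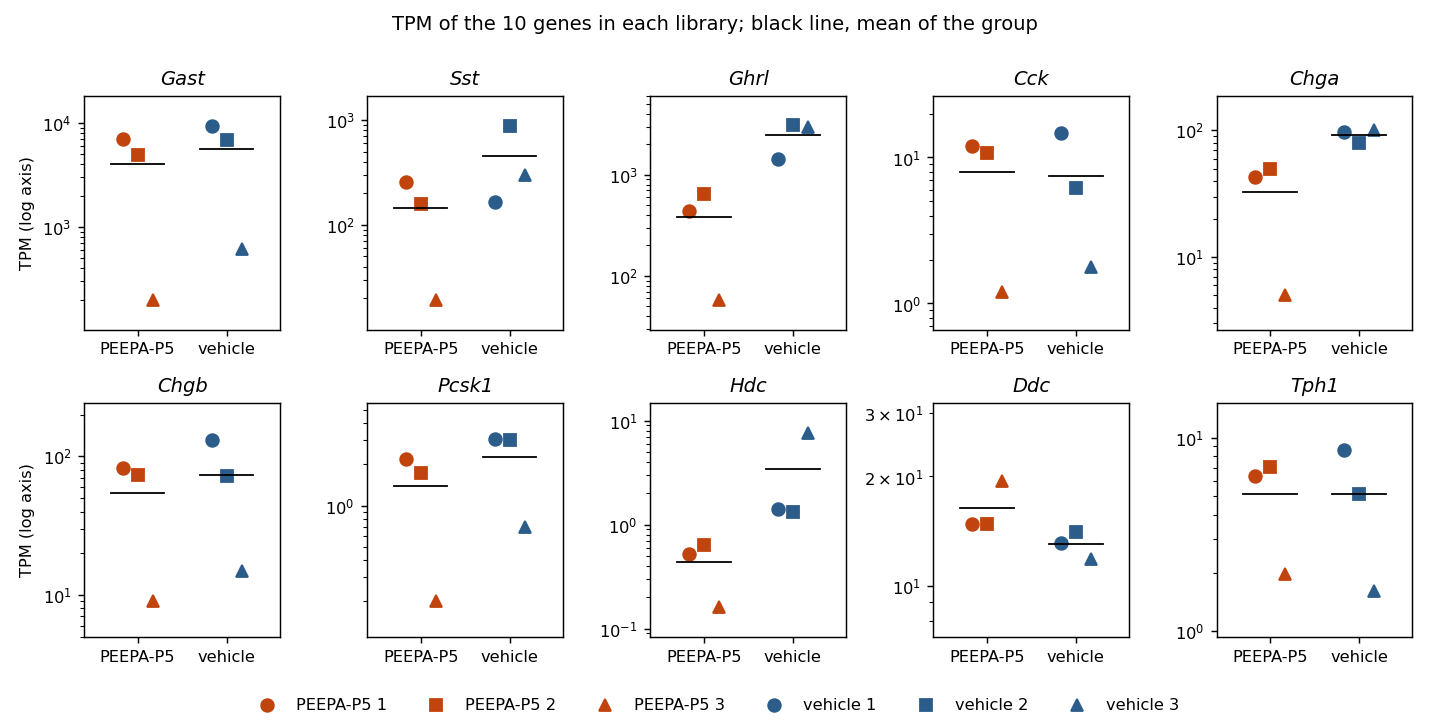
TPM of each of the 10 genes (vertical log axis, a separate scale per gene) in the 3 PEEPA-P5 and the 3 vehicle libraries, with the mean of each group as a line. Ghrl, Chga and Hdc lay lower in every PEEPA-P5 library than in every vehicle library, Ddc lay higher, and both libraries numbered 3 were low for Gast, Cck, Chgb, Pcsk1 and Tph1.

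Among the granule proteins, Chga (Entrez 12652) encodes chromogranin A, a general marker of endocrine cells that helps to form their granules. It was at 42.9, 49.4 and 4.98 TPM in PEEPA-P5 1, 2 and 3, against 96.7, 79.6 and 101 TPM in vehicle 1, 2 and 3. The groups did not overlap, and the vehicle libraries lay close together while PEEPA-P5 3 was far below the rest. On the log2 scale Chga differed by -1.48 with a standard error of 0.72 (edgeR adjusted p 0.453). It was -0.98 when PEEPA-P5 3 was left out, and -0.83 when vehicle 3 was left out as well.

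Chgb (Entrez 12653) encodes the related chromogranin B. It was at 82.1, 73.0 and 9.05 TPM in PEEPA-P5 1, 2 and 3, against 132.5, 72.5 and 14.8 TPM in vehicle 1, 2 and 3. Unlike Chga it was low in vehicle 3, and the groups overlapped. The log2 difference was -0.34 with a standard error of 0.94 (edgeR adjusted p 0.894), and it turned to 0.16 without PEEPA-P5 3 and to 0.47 without vehicle 1.

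Pcsk1 (Entrez 18548) encodes prohormone convertase 1/3, which cuts hormone precursors inside the granule. It had 176, 140 and 16 counts in PEEPA-P5 1, 2 and 3, against 249, 234 and 56 counts in vehicle 1, 2 and 3. Both libraries numbered 3 were low and the groups overlapped. The log2 difference was -0.62 with a standard error of 0.82 (edgeR adjusted p 0.757), -0.12 without PEEPA-P5 3 and -1.13 without PEEPA-P5 1.

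Of the amine enzymes, Hdc (Entrez 15186) encodes histidine decarboxylase, which forms histamine in enterochromaffin-like cells and in mast cells. It was sparse, with 19, 23 and 6 counts in PEEPA-P5 1, 2 and 3, against 52, 46 and 278 counts in vehicle 1, 2 and 3. Every PEEPA-P5 library was below every vehicle library, and vehicle 3 was far above the others. For Hdc the fitted log2 difference was -2.98 with a standard error of 0.91 (edgeR unadjusted p 0.0145, adjusted p 0.412), -1.49 without vehicle 3 and -1.13 without both libraries numbered 3. DESeq2 called Hdc, at an adjusted p of 0.036, where it called 0.788% of all genes tested. Adjusted p-values over the other fits ran from 0.216 to 0.782.

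Hdc can come from mast cells, so their markers are given beside it. Of 11 listed mast cell genes 10 were in the table and 8 were tested, 3 of them lower and 5 higher with PEEPA-P5, and their summed level was 14.5 to 57.4 TPM with PEEPA-P5 against 16.2 to 29.5 TPM with vehicle. Mcpt2, a mast cell protease, stood at 10.4, 27.7 and 29.1 TPM in PEEPA-P5 1, 2 and 3, against 14.8, 18.7 and 7.32 TPM in vehicle 1, 2 and 3. Vehicle 3, the library with the most Hdc, had the least Mcpt2. Mcpt2 did not follow the list as a whole. The list's mean log2 CPM, minus its mean over the 6 libraries, was -0.66, 1.28 and -1.22 in PEEPA-P5 1, 2 and 3. It was 0.61, 0.29 and -0.31 in vehicle 1, 2 and 3. The list was thus lowest in PEEPA-P5 3, where Mcpt2 was highest and Hdc lowest. A mast cell source of Hdc was not tested. Kit, another gene of that list, was at 0.49, 1.18 and 0.07 TPM with PEEPA-P5 against 1.51, 3.06 and 5.56 TPM with vehicle, in the same order as Hdc at its highest and lowest library. Fcer1a, which encodes part of the mast cell IgE receptor, had at most 10 counts in any library.

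Ddc (Entrez 13195) encodes aromatic amino acid decarboxylase, the last step of serotonin synthesis, which many epithelial cells also make. It was the steadiest member, with a 1.64-fold range of TPM over the 6 libraries against 54.1-fold for Ghrl. It was at 14.8, 14.8 and 19.4 TPM in PEEPA-P5 1, 2 and 3, against 13.1, 14.1 and 11.8 TPM in vehicle 1, 2 and 3. Every PEEPA-P5 library lay above every vehicle library, and PEEPA-P5 3, the lowest library by CPM for the other 9 members, was highest. On the log2 scale Ddc differed by 0.45 with a standard error of 0.18 (edgeR unadjusted p 0.0400, adjusted p 0.412), and 0.23 without PEEPA-P5 3.

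Tph1 (Entrez 21990) encodes tryptophan hydroxylase, the rate-limiting step of serotonin synthesis outside the nervous system. It was at 6.34, 7.06 and 1.97 TPM in PEEPA-P5 1, 2 and 3, against 8.65, 5.14 and 1.62 TPM in vehicle 1, 2 and 3. The libraries numbered 3 were the lowest of each group, and the groups overlapped. The log2 difference was -0.14 with a standard error of 0.70 (edgeR adjusted p 0.941), and its sign was the other way on TPM, at 0.06 with a pseudocount of 1 and 0.09 with a pseudocount of 0.1.

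Over the whole set, 0 of 10 members passed the adjusted threshold of 0.05 in the edgeR fit, against 0% of the 13071 genes tested. With limma-voom it was also 0 of 10, and with DESeq2 1 of 10, where DESeq2 called 0.788% of all genes tested. At an unadjusted p under 0.05, 2 members were lower, Ghrl and Hdc, against 6.14% of all genes tested, and 1 was higher, Ddc, against 5.92%. With limma-voom 1 member was lower at that p, against 5.81% of all genes, and with edgeR without both libraries numbered 3 there were 4, Ghrl, Chga, Hdc and Pcsk1, against 4.48%. The groups did not overlap in 3 lower members, against 10.7% of all genes, and in 1 higher member, against 9.74%. In all, 8 members had a negative and 2 a positive difference, with a median of -0.49 on the log2 scale, beside -0.005 and 50.6% negative over all genes tested.

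The order of the members by mean TPM was Gast, Ghrl, Sst, Chgb, Chga, Ddc, Cck, Tph1, Hdc and Pcsk1. Some neighbours in this order were not apart beyond their spread: Chgb was above Chga in 4 of 6 libraries, and Hdc was above Pcsk1 in 1 of 6, its mean being set by vehicle 3. Ghrl was above Sst, and Sst above Chgb, in 6 of 6 libraries. The summed TPM of the 10 members was 7887, 5957 and 313 in PEEPA-P5 1, 2 and 3, against 11360, 10990 and 4009 in vehicle 1, 2 and 3. Gast made up 89.2%, 83.8% and 63.7% of that sum in PEEPA-P5 1, 2 and 3, against 83.6%, 62.1% and 15.2% in vehicle 1, 2 and 3. Ghrl made up 5.58%, 10.9% and 18.3% in the PEEPA-P5 libraries, against 12.6%, 28.3% and 73.9% in the vehicle libraries. Vehicle 3 was thus the library in which ghrelin transcript exceeded gastrin transcript.

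**Figure D2:**
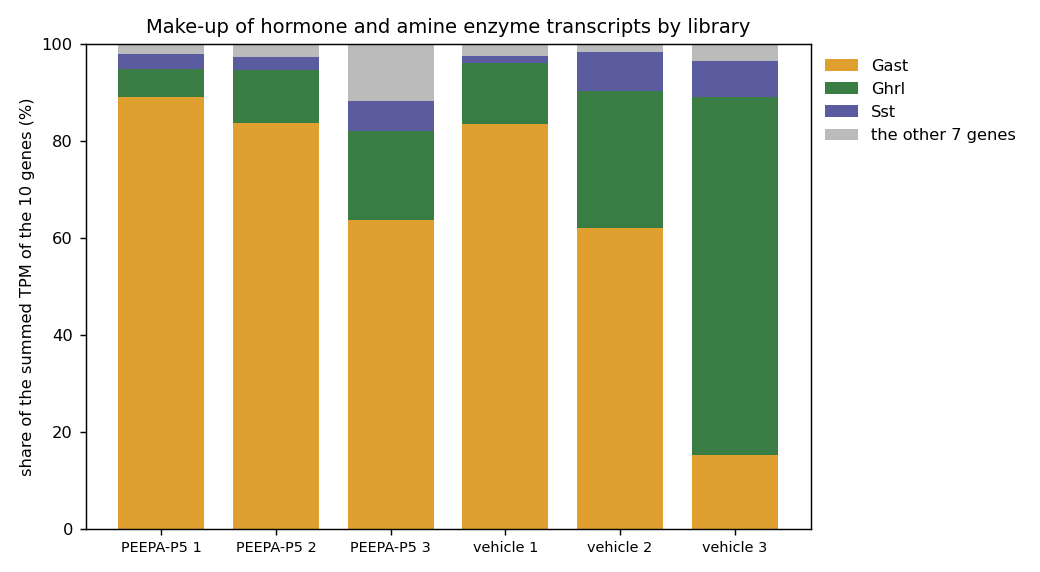
Share of the summed TPM of the 10 members (vertical axis, %) held by Gast, Ghrl, Sst and the rest in each library. Gast held most of the sum in 5 libraries, and Ghrl held 73.9% in vehicle 3.

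The libraries of both groups carry the numbers 1 to 3, so same-numbered libraries were also set beside each other. Of the 10 members, 5 were lower with PEEPA-P5 in all 3 numbered pairs, against 24.5% of all genes tested, and 1 was higher in all, against 22.4%. Ghrl had log2 CPM differences of -1.63, -2.09 and -5.58 in pairs 1, 2 and 3, and Chga of -1.11, -0.52 and -4.24. Hdc had differences of -1.30, -0.83 and -5.10. In these members the third pair differed most. For Gast the differences were -0.35, -0.28 and -1.49, and for Pcsk1 they were -0.43, -0.62 and -1.63, so both were lower in each pair although their groups overlapped. Ddc differed by 0.23, 0.24 and 0.80. Sst went both ways, at 0.68, -2.32 and -3.81, and so did Chgb, Tph1 and Cck.

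With the number as a block in the edgeR fit, the difference of Gast was -0.70 with a standard error of 0.28 (unadjusted p 0.0564, adjusted p 0.364), where the fit without it gave a standard error of 1.28. Pcsk1 was at -0.84 with a standard error of 0.29 (unadjusted edgeR p 0.0364, adjusted p 0.364), and Hdc at -2.35 with a standard error of 1.00 (unadjusted edgeR p 0.0697). No member and no other gene passed the adjusted threshold in that fit, 0% of 13071, while 7.06% of all genes were lower at an unadjusted p under 0.05. The labels do not say what the numbers mean, and the numbers were taken as possible pairs from the same data.

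**Figure D3:**
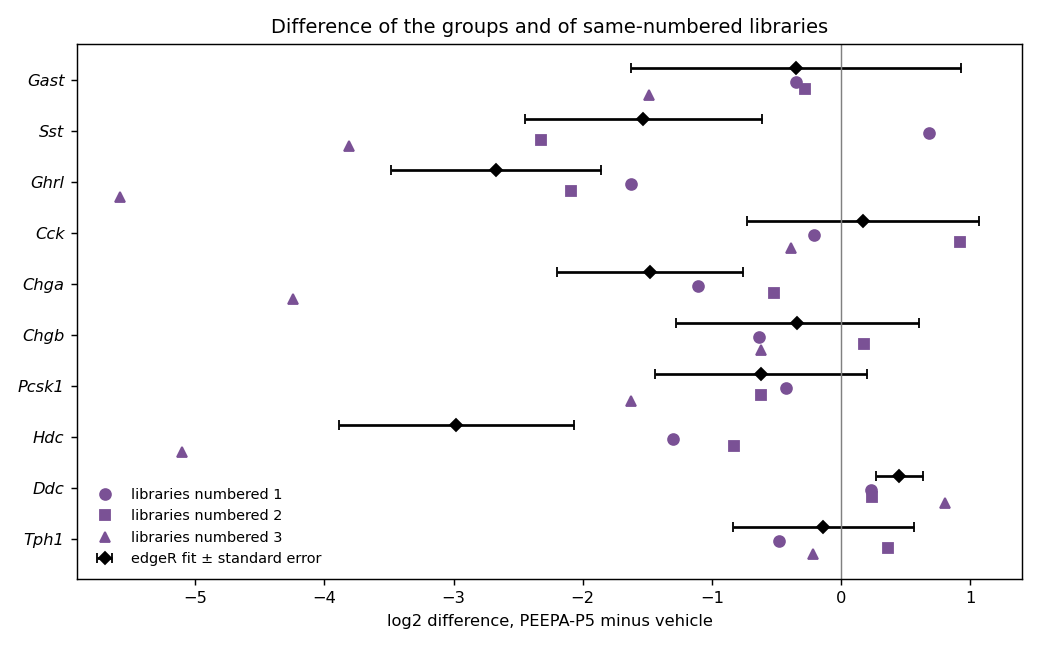
Log2 difference of PEEPA-P5 minus vehicle (horizontal axis) for each member, as the edgeR fit with its standard error and as the difference in log2 CPM of each numbered pair. Ghrl, Chga, Hdc, Gast and Pcsk1 lay below 0 in all pairs, and Ddc above 0 in all pairs.

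Ratios between members within a library cancel only what both transcripts share. Chga did not follow all members alike, with a Pearson correlation over the 6 libraries of 0.95 with Ghrl, 0.84 with Sst, 0.62 with Gast and 0.56 with Chgb. Of 7 ratios of TPM, 2 did not overlap between groups. Both are over Chga, whose own groups did not overlap, so they are not independent of each other or of Chga. Ghrl over Chga was 10.2, 13.2 and 11.5 in PEEPA-P5 1, 2 and 3, against 14.8, 39.0 and 29.3 in vehicle 1, 2 and 3, a log2 difference of -1.15 (two-sided exact permutation test, p = 0.1, which is as low as 3 against 3 can go, and 0.35 adjusted over the 7 ratios). The PEEPA-P5 libraries, PEEPA-P5 3 included, lay within a narrow range for this ratio. Chgb over Chga was 1.91, 1.48 and 1.82 with PEEPA-P5 against 1.37, 0.91 and 0.146 with vehicle, a log2 difference of 1.61 (exact permutation p = 0.1, 0.35 adjusted). Without vehicle 3 that difference was 0.63.

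The other ratios overlapped. Gast over Sst, a ratio of transcripts that need not equal the balance of the hormones, was 27.7, 31.8 and 10.3 with PEEPA-P5. With vehicle it was 57.1, 7.73 and 2.05 (exact permutation p = 0.6), and the vehicle libraries spanned more than the PEEPA-P5 libraries. Ghrl over Gast was 0.0625, 0.131 and 0.288 with PEEPA-P5 against 0.151, 0.455 and 4.86 with vehicle, a log2 difference of -2.38 (exact permutation p = 0.2), and of -0.98 without vehicle 3. Ghrl over Sst (exact permutation p = 0.2), Gast over Chga (p = 0.5) and Sst over Chga (p = 0.9) had log2 differences of -1.27, 1.24 and 0.13.

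**Figure D4:**
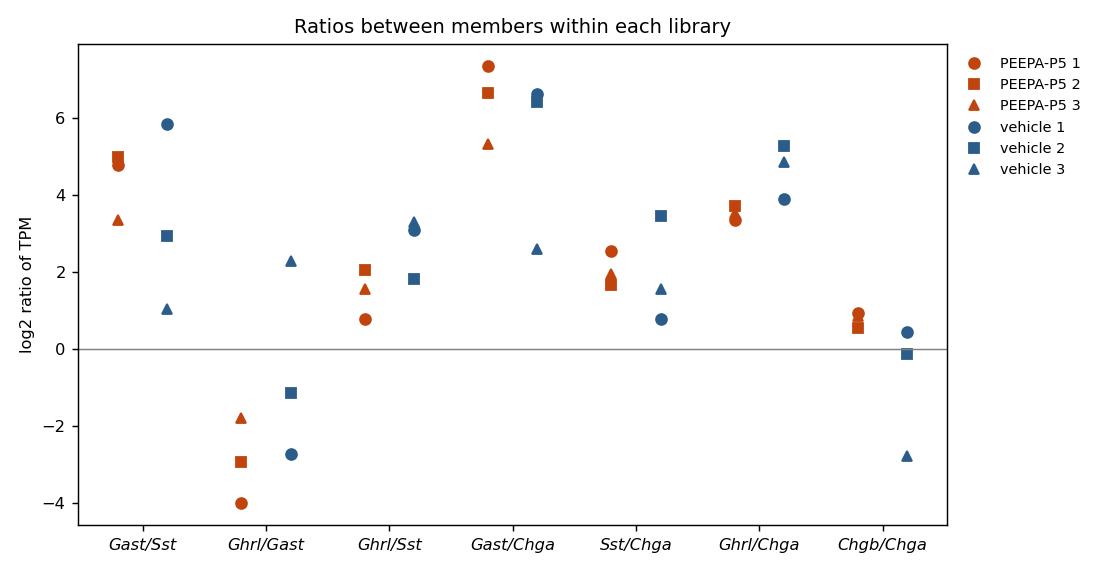
Log2 ratio of TPM between pairs of members (vertical axis) in each library. The groups were apart in Ghrl over Chga, lower with PEEPA-P5, and in Chgb over Chga, higher with PEEPA-P5, and overlapped in the other 5 ratios.

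Across the 6 libraries the members fell into patterns that followed the libraries as well as the groups. Chgb and Cck were the closest pair of members, with a root mean square distance of 0.29 in log2 CPM centred on the mean of each gene, followed by Tph1 and Cck at 0.34 and Chgb and Tph1 at 0.41. Gast lay at 0.71 from Chgb and at 2.01 from Ghrl. Ghrl lay at 0.72 from Chga and at 0.98 from Hdc. Gast, Chgb, Cck, Tph1 and Pcsk1 were below their own mean in both libraries numbered 3, whereas Ghrl, Chga, Sst and Hdc were below it in PEEPA-P5 3 and above it in vehicle 3. Of the 4 genes with the motif TGACGT upstream, Chgb and Pcsk1 were in the first set and Sst and Chga in the second.

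Among 12367 genes with a mean of at least 1 CPM, the nearest to Ghrl by the same distance were Cblif at 0.204, Kit at 0.365 and Cxcl12 at 0.414. Cblif, which encodes gastric intrinsic factor, also stands in the chief cell list. The nearest to Gast were Gldc at 0.437, Sphkap at 0.478 and Sfrp5 at 0.581. For Sst they were Abca8a, Fbln2 and Slc43a3, for Chga Kcnc2, Alb and Emb, and for Hdc Peli2, Pfkfb3 and Mitf. Chgb had Ambp, Tmem163 and Cck nearest, Cck had a predicted gene, Etv1 and Chgb, and Tph1 had Prob1, Col23a1 and Etv1. Pcsk1 had Smarca1 and Cpe among its nearest, and Ddc had Ets2, Abhd5 and Nipsnap3b. All of these distances rest on the same 6 libraries.

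The remaining genes of these pathways were counted in lists. Of the genes for prohormone processing, 9 of 10 were tested, 9 were lower and 0 higher, with a median log2 difference of -0.78. The groups overlapped in the list's mean log2 CPM, centred on its mean over the 6 libraries. That mean was 0.20 and 0.13 in PEEPA-P5 1 and 2, above 0.02 in vehicle 3, and -1.65 in PEEPA-P5 3. Furin, a convertase of most cells, had a log2 difference of -1.30 (edgeR adjusted p 0.412). Cpe, the carboxypeptidase that trims hormone precursors, was at 41.5, 32.4 and 2.94 TPM with PEEPA-P5 against 50.2, 39.2 and 10.6 TPM with vehicle, low in both libraries numbered 3. Pam, which amidates the end of gastrin, was at 9.97, 9.80 and 7.40 TPM with PEEPA-P5 against 11.8, 14.8 and 6.99 TPM with vehicle. Mboat4, the ghrelin acyltransferase, named here after its values were seen, was at 0.52, 0.56 and 0.18 TPM with PEEPA-P5 against 1.15, 0.89 and 0.78 TPM with vehicle.

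Of the other granule proteins, 13 of 14 were tested, with 12 lower, 1 higher and a median of -0.82. Here too the groups overlapped in the centred list mean. It was 0.21 and 0.08 in PEEPA-P5 1 and 2, above -0.03 in vehicle 3, and -1.80 in PEEPA-P5 3. Ptprn2, a granule membrane protein, was at 44.7, 47.2 and 48.6 TPM with PEEPA-P5 against 53.0, 61.8 and 39.2 TPM with vehicle, and so did not follow the low library. Resp18, a granule protein of endocrine cells, was at 26.7, 19.3 and 0.94 TPM with PEEPA-P5 against 60.6, 56.4 and 18.9 TPM with vehicle. Syt7, a calcium sensor of exocytosis, had a log2 difference of -0.23.

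Amine transport and breakdown genes had 4 of 8 tested lower and 4 higher, with a median of -0.07. Gch1, which starts the synthesis of the cofactor of Tph1, was at 28.4, 31.8 and 28.9 TPM with PEEPA-P5 against 22.9, 15.6 and 13.2 TPM with vehicle, higher in each PEEPA-P5 library (edgeR log2 difference 0.89, standard error 0.20, adjusted p 0.412). Maob, an amine oxidase, and Qdpr, which recycles that cofactor, had log2 differences of 0.40 and 0.04. Slc18a2, which loads histamine into granules and is named here after its values were seen, was at 0.72, 1.01 and 0.56 TPM with PEEPA-P5 against 1.47, 1.91 and 2.65 TPM with vehicle (log2 difference -1.34, edgeR adjusted p 0.412). Slc18a1, taken as an enterochromaffin cell marker and also named after its values were seen, differed little. It was at 0.35, 0.25 and 0.25 TPM with PEEPA-P5 against 0.43, 0.38 and 0.25 TPM with vehicle (log2 difference -0.18, edgeR adjusted p 0.867).

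Other gut peptides were sparse, with 4 of 17 tested, all 4 of them lower and a median of -1.37. Pyy, Gip and Npw had log2 differences of -0.04, -0.68 and -2.06. Gcg, which also stands in the islet list, had one of -2.78 (edgeR adjusted p 0.412). Of the receptors for these messengers 8 of 15 were tested, with 6 lower and 2 higher and a median of -0.79. Gpr39, a zinc-sensing receptor, had a difference of 0.10. Hrh2, the histamine receptor of parietal cells, was listed at 0, 0.79 and 0 TPM in PEEPA-P5 1, 2 and 3, against 1.04, 3.07 and 11.9 TPM in vehicle 1, 2 and 3. Cckar, a cholecystokinin receptor also made by chief cells, was at 0.09, 0.95 and 0 TPM with PEEPA-P5 against 0.90, 3.78 and 8.83 TPM with vehicle. Cckbr, the gastrin receptor, named here after its values were seen, was at 0.03, 0.11 and 0.08 TPM with PEEPA-P5 against 0.30, 1.15 and 2.40 TPM with vehicle. Of the endocrine transcription factors, 13 of 16 were tested, with 11 lower, 2 higher and a median of -0.76. Their centred list mean was 0.34 and 0.07 in PEEPA-P5 1 and 2, above -0.30 in vehicle 3, and -1.50 in PEEPA-P5 3. The most abundant of these factors, Nkx6-3, Pdx1 and Isl1, had log2 differences of 0.24, 0.54 and -1.59, and vehicle means of 81.1, 25.8 and 3.83 TPM. Nkx6-3 and Pdx1 did not follow the low library: by CPM they were highest in PEEPA-P5 3, at 205.8 and 77.8, where Isl1 was lowest, at 0.605. In these 6 lists 0 genes passed the adjusted threshold in edgeR. DESeq2, which called 0.788% of all genes tested, called Gch1, at an adjusted p of 0.017, and Cckbr, at an adjusted p of 0.014.

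Most parietal and chief cell markers were lower with PEEPA-P5 in level, as Ghrl, Hdc and Chga were, though none passed the adjusted threshold in edgeR. Of the parietal list 10 of 10 were tested, 9 lower and 1 higher with PEEPA-P5, with a median log2 difference of -3.08. The list summed to 972 to 1387 TPM with PEEPA-P5 and 1396 to 4140 TPM with vehicle, much of it from Ckmt1, at 864 to 902 TPM with PEEPA-P5 and 569 to 896 TPM with vehicle. Atp4a, the proton pump, was at 1.51, 119.5 and 0.07 TPM in PEEPA-P5 1, 2 and 3, against 114.6, 566.7 and 892 TPM in vehicle 1, 2 and 3. The 5 chief cell markers tested were all lower, with a median of -2.32, and their sum was 2077 to 9123 TPM with PEEPA-P5 and 8547 to 72330 TPM with vehicle. The part of these markers in the differences of Ghrl, Hdc and Chga was not tested.

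Markers of other sources were mostly sparse. Of 7 listed islet genes 1 was tested, Gcg, also counted among the gut peptides above. Ins1, G6pc2, Ppy and Mafa had at most 10 counts in any library. Of 10 neuron and glia genes 4 were tested, with sums of 0.72 to 3.64 TPM with PEEPA-P5 and 1.79 to 5.63 TPM with vehicle, and Elavl4, Elavl3 and Sox10 had at most 10 counts. Of 9 exocrine pancreas genes 3 were tested, with sums of 256 to 449 TPM with PEEPA-P5 and 315 to 469 TPM with vehicle, almost all of it Cela1, a median log2 difference of -1.90, and Pnlip, Ctrb1, Prss1 and Cela3b had at most 10 counts. Fibroblast markers were lower in 8 of 8, endothelial in 7 of 7, smooth muscle in 7 of 7 and leukocyte in 4 of 5 tested genes, while surface mucous markers were higher in 7 of 7 and squamous markers in 3 of 3. Surface mucous markers, led by Tff1 and Gkn2, summed to 342300 to 389000 TPM with PEEPA-P5 and 293900 to 339100 TPM with vehicle. None of the marker genes passed the adjusted threshold in edgeR. DESeq2, which called 0.788% of all genes tested, called Slc26a7, Kcnj15, Cel and Pnliprp2.

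**Figure D5:**
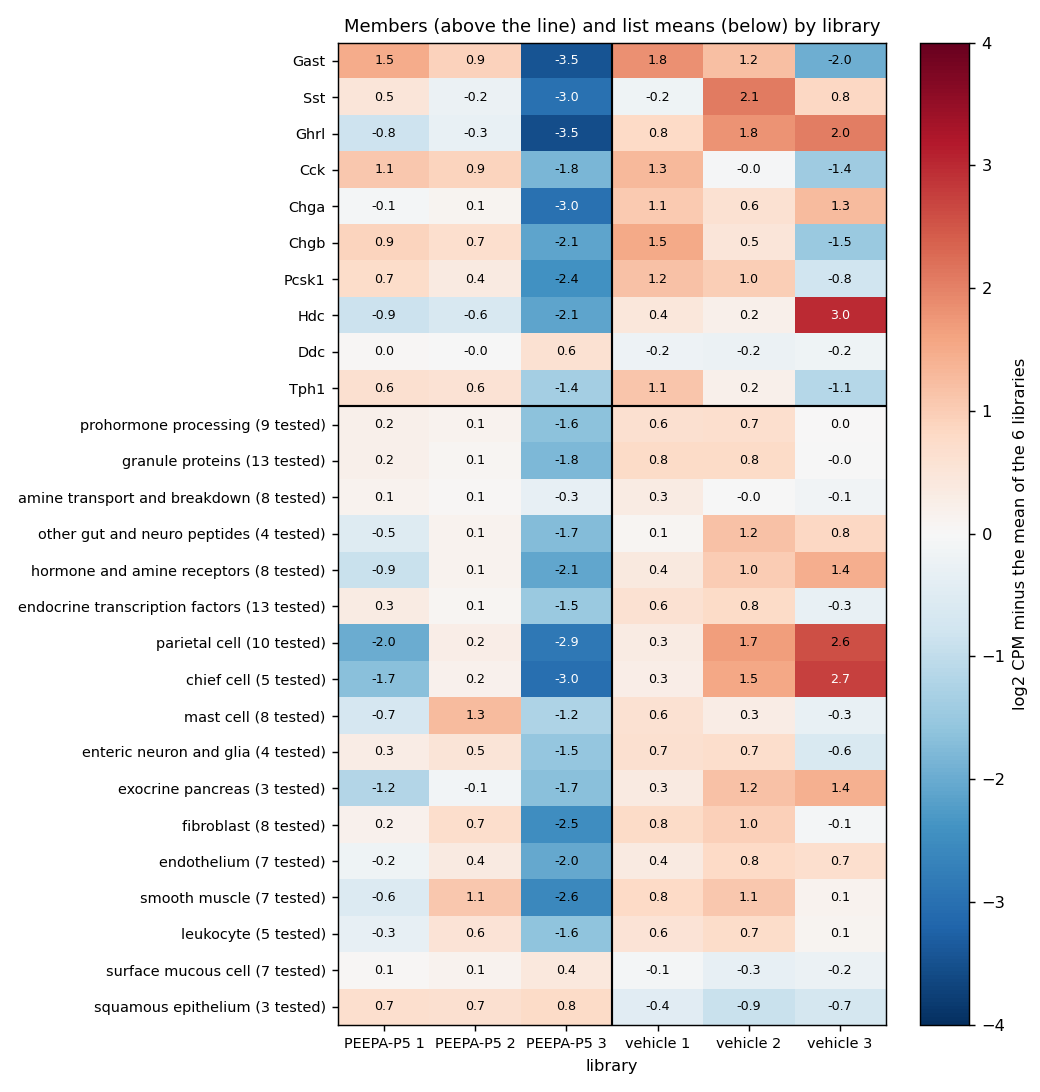
Log2 CPM minus the mean of the 6 libraries (colour and number) for each member, above the line, and for the mean of each list with at least 3 tested genes, below it. PEEPA-P5 3 was low in all members but Ddc and in most lists, and parietal and chief cell lists were highest in vehicle 3.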

How the data were processed

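RNA-seq of 6 libraries was analysed, 3 per group. Per the labels' protocols, Trizol RNA was made into libraries with an Illumina TruSeq kit. Per the submitters' processing notes, Bowtie2 2.2.5, RSEM 1.2.12 and the build mm9 were used (those notes give no roles). Expected counts, TPM and FPKM of each library were deposited by the authors, as the file headers show, and 9.82% of the expected counts were not whole. Here the expected counts were rounded and tested with edgeR 4.0.16 (robust quasi-likelihood test, TMM, its expression filter, Benjamini-Hochberg adjustment over 13071 genes), two-sided and without covariates. That test was checked on simulated counts, drawn independently for each gene. They lack shifts shared by many genes of a library, as in PEEPA-P5 3, so the check does not cover those. Log2 CPM used a prior count of 2. TPM is the authors' level per length and was used for levels and ratios, and FPKM, also as deposited, for an alternative of the ratios. The authors' group means were not used. Alternatives were DESeq2 1.42.0, limma-voom and limma-trend (limma 3.58.1), other factors and filters, the replicate block, and libraries left out.

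For libraries 1, 2 and 3, the deviations of same-numbered samples from their group's mean had correlations of 0.237, 0.346 and 0.235, each over 0.1, so the numbers were taken as possible pairs. Of different-numbered samples, PEEPA-P5 1 and vehicle 2 also passed that cut, at 0.176, and the rest ran from -0.349 to 0.027. The cut thus did not single out same-numbered libraries, and this pairing comes from the data. No library pair was within sampling noise (chi-square per degree of freedom at least 13.3).

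The members, lists and alternatives were chosen with earlier results of these data known. Named genes are the members, the 3 most abundant tested genes of each list (2 of each marker list) and the 3 genes nearest to each member. Other names are marked as chosen after their values were seen, except markers named for being low or for a DESeq2 call, and motif matches. Some genes that these rules name are not reported here. At most 1.62% of the 31-base stretches of a member occur in transcripts of other genes.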

Additional observations from a re-analysis of the deposited data

How the results depend on the processing

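The number of genes past the adjusted threshold was 0 in edgeR and 0 to 1 with each library left out, the 1 being without vehicle 1, but 103 in DESeq2, 1 of them a member, Hdc. With each library left out 0 members passed. Members lower at an unadjusted p under 0.05 numbered 2, and 2 with each library left out, but 1 with limma-voom, where 5.81% of all genes were lower at that p, and 4 without both libraries numbered 3, where 4.48% were. With the replicate block the count was 2, with Pcsk1 in place of Hdc, no gene passed the adjusted threshold, and the block changed no adjusted call. Of 160 alternative log2 differences of members, 12 changed sign, all in Gast, Chgb, Tph1 and Cck. Without PEEPA-P5 3 they were 0.20 for Gast, 0.16 for Chgb and 0.27 for Tph1, and without vehicle 1 they were 0.31, 0.47 and 0.51. Tph1 was at 0.06 and 0.09 on TPM with pseudocounts of 1 and 0.1. Cck was at -0.0016 on TPM with a pseudocount of 0.1, -0.25 without PEEPA-P5 1, -0.07 without PEEPA-P5 2 and -0.27 without vehicle 3. Of 56 alternative ratios 5 changed sign. Without vehicle 3 these were Gast over Sst at -0.01, Gast over Chga at -0.07 and Sst over Chga at -0.06. Sst over Chga was also at -0.12 without PEEPA-P5 1 and -0.45 without vehicle 1. With each library left out, the range was -1.02 to 0.31 for Gast, -0.80 to 0.47 for Chgb, -0.53 to 0.51 for Tph1 and -0.27 to 1.12 for Cck, and -0.01 to 2.39 for Gast over Sst, -0.07 to 1.94 for Gast over Chga and -0.45 to 0.89 for Sst over Chga. The cause was not tested. Members lower in all numbered pairs stayed at 5 in each scaling tried. Counts of Hdc and Cck were under 10 in PEEPA-P5 3, which limits their precision there.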
